A study of Mus musculus with 10 samples.

Results

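The MYC, MAX and MXD network was examined in leukemic spleens from mice into which a T-cell acute lymphoblastic leukemia (T-ALL), a cancer of immature T cells, had been transplanted. The network was defined by name as 10 genes, Myc, Mycn, Mycl, Max, Mxd1, Mxd3, Mxd4, Mxi1, Mnt and Mlx, and all 10 were found among the 20813 genes of the expression table. RNA was sequenced from 10 spleen samples of C57BL/6 mice, 5 labelled Sirt1 deleted and 5 labelled control. Every leukemia carried a conditional Sirt1 allele, also those of the control group. The leukemias had been injected intravenously into recipients irradiated below the lethal dose. The recipients received corn oil alone or tamoxifen in corn oil by intraperitoneal injection, at 3 mg per mouse, and the titles (TMX or VEH) divide the samples as the genotype label does. Genotype and treatment therefore cannot be told apart. The recombinase and its driver, the oncogene behind the leukemias, the number of primary leukemias and the ages of the animals are not given in the sources used here. The comparison asks which transcripts of the network differ when Sirt1, a NAD-dependent deacetylase gene, is deleted in established leukemia.

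MYC is a transcription factor that binds DNA only as a heterodimer with MAX, preferentially at the E-box CACGTG, and activates genes of ribosome production, metabolism and cell growth. The MXD proteins (MXD1, MXI1, MXD3 and MXD4) and MNT compete for the same partner and the same sites, and recruit the SIN3 and histone deacetylase corepressor. MLX is a second, MAX-like hub that pairs with some MXD proteins, with MNT, and with the glucose-sensing factors MondoA and ChREBP. In T-ALL, MYC is a direct target of NOTCH1 signalling and a main driver of leukemia growth, and MXD1 and MXI1 are best known from cells that stop dividing and differentiate, granulocytes among them.

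Several network genes carry the network's own binding letters near their start. RefSeq promoter windows (GRCm38.p6, from 250 bases before to 50 after the annotated start) were matched for 9 of the 10 members, all except Myc. The letters CACGTG, which read the same on both strands and which were searched with no other motif, were found in the windows of 4 of these 9 genes, Max, Mlx, Mnt and Mxd4. Of all 32851 RefSeq windows of this length, 7.15% held them, as did at least 1 window of 8.09% of the 27025 genes with a window. These background windows were not chosen for similar base composition or expression, and the shares were not tested. The windows of Mxd1, Mxd3, Mycl and Mycn, and all 3 windows of Mxi1, held no such letters. The 4 windows with a match are printed because they show where the E-box, in capitals, lies in the shared hubs Max and Mlx and in 2 antagonists.
Max, chr12:76962199-76962498, minus strand: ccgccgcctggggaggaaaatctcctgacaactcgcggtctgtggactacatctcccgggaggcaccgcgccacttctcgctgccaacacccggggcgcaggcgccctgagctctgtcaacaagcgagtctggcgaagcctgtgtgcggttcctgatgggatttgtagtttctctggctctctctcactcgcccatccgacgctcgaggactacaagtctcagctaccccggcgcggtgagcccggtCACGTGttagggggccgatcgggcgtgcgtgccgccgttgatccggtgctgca
Mlx, chr11:101087040-101087339, plus strand: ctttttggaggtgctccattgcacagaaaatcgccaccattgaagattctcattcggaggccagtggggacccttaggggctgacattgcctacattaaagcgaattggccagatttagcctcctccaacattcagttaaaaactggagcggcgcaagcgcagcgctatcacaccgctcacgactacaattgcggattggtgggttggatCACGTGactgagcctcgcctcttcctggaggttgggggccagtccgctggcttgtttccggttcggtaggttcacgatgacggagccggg
Mnt, chr11:74830674-74830973, plus strand: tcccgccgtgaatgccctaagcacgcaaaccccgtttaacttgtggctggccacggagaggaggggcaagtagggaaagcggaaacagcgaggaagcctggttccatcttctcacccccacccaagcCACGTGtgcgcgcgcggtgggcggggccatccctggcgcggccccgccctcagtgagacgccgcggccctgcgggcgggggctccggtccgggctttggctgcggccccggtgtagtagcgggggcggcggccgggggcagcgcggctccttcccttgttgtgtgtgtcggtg
Mxd4, chr5:34187661-34187960, minus strand: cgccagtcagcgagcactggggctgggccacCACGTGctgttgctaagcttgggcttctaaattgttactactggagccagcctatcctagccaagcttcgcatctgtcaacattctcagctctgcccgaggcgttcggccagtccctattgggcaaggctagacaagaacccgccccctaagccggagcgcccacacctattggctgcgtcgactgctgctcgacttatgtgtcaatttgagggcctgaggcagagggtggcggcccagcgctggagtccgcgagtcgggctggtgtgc
The first base of the E-box lay 3 bases upstream of the annotated start in Max, 40 in Mlx, 123 in Mnt and 219 in Mxd4. For Max, 0 GENCODE M21 transcripts held the bases checked after this RefSeq start. That annotation begins the gene at 76962201, downstream of the RefSeq start, so the distance in Max depends on the annotation. Each window held the letters once, and a match in the letters does not show that a protein is bound there.

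Values are counts per gene divided by the authors' DESeq normalization factors, called normalized counts here, and they added up to 33.7 M to 34.5 M (M, mega) in each sample. Differences were fitted with limma on log2(normalized count + 1) and are given as labelled Sirt1-deleted minus control, with Benjamini-Hochberg adjustment over all 15276 genes with a mean of at least 10. Of these, 5518 (36.1%) passed an adjusted p of 0.05, 16.8% as higher and 19.4% as lower. The higher share of the called genes was 46.4% as deposited and 58.2% after upper-quartile rescaling, which called 35.6% of tested genes. Sirt1 itself was 1873 ± 146 in the spleens labelled Sirt1-deleted and 1810 ± 62.5 in controls (SD over 5 samples a group; limma adjusted p = 0.568). The exons removed from the conditional allele are not given, so this gene-level value may not check the deletion, and the group is named by its label. Markers of T cells were abundant (14 of 14 detected, summed to between 165634 and 230063 normalized counts), while 8 B cell markers summed to between 465 and 1091. Nothing states how samples map to animals, so spleens here stand for spleen samples, and p-values measure the spread between these samples.

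Of the 9 members that passed the minimum mean, Mxd1 was called higher and Mxi1 and Mnt were called lower, and 6 were not called. Mycn, at a mean of 1.25 in the spleens labelled Sirt1-deleted and 1.20 in controls, was not tested. The 3 called members are 33.3% of those tested, near the 36.1% of all tested genes. After upper-quartile rescaling 5 of the 9 were called, where 35.6% of all tested genes were. Quantile normalization also called 5, where it called 5213 of the 15276 tested genes. The 3 called members, all antagonists of MYC, differed in direction, as did called genes in general, of which 46.4% were higher. Myc was not called.

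Myc, the main activator of the network, measured 8776, 10123, 10147, 9584 and 8985 normalized counts in labelled Sirt1-deleted samples 7, 8, 10, 11 and 12. In control samples 2, 3, 4, 5 and 6 it measured 9182, 10743, 10425, 10044 and 10510. The groups overlapped, and the lowest control lay among the labelled Sirt1-deleted values. The group means were 9523 ± 632 and 10181 ± 613 (SD, n = 5 each), a log2 difference of -0.10 with a 95% interval of -0.22 to 0.03 (limma adjusted p = 0.204). The lower bound corresponds to a fall of 0.22 on the log2 scale, and the difference was not called under any of the 10 other settings that kept all samples. The other activator genes were barely present. Mycl, the paralog first found in lung cancer, was 17.1 ± 8.71 against 11.2 ± 4.59 (log2 difference 0.53, 95% interval -0.31 to 1.38; limma adjusted p = 0.303). Mycn, the paralog of neuroblastoma, lay between 0 and 3.22 in the spleens labelled Sirt1-deleted and between 0 and 3.29 in controls.

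Max, the obligate partner of MYC and a shared partner of its antagonists, was 5362, 5592, 5200, 5536 and 5304 in labelled Sirt1-deleted samples 7, 8, 10, 11 and 12, and 4589, 5333, 4959, 4939 and 5105 in controls 2 to 6. Only control 3 reached into the range of the spleens labelled Sirt1-deleted. The difference was 0.12 (SE 0.05, 95% interval 0.01 to 0.22) and did not pass the threshold (limma adjusted p = 0.0726). It passed after upper-quartile rescaling (0.18, adjusted p = 0.0155), after quantile normalization (0.16, adjusted p = 0.0268) and without control 3 (0.14, adjusted p = 0.0463). Mlx, the second hub, was 1729 ± 132 against 1597 ± 44.3 (SD, n = 5 each; difference of 0.11 on the log2 scale; adjusted p = 0.154 by limma), and was called higher, among the settings run, only after upper-quartile rescaling (0.17, adjusted p = 0.0250) and quantile normalization (0.17, adjusted p = 0.0323). Mlx shares 385 exonic bases with the opposite-strand gene Psmc3ip, and the strand setting of the quantification is not stated. The log2 ratio of Myc to Max was lower in each of the 5 labelled Sirt1-deleted samples (0.71 to 0.96) than in any control (1.00 to 1.07). This ratio was formed after its parts had been seen and is given without a test.

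**Figure D1:**
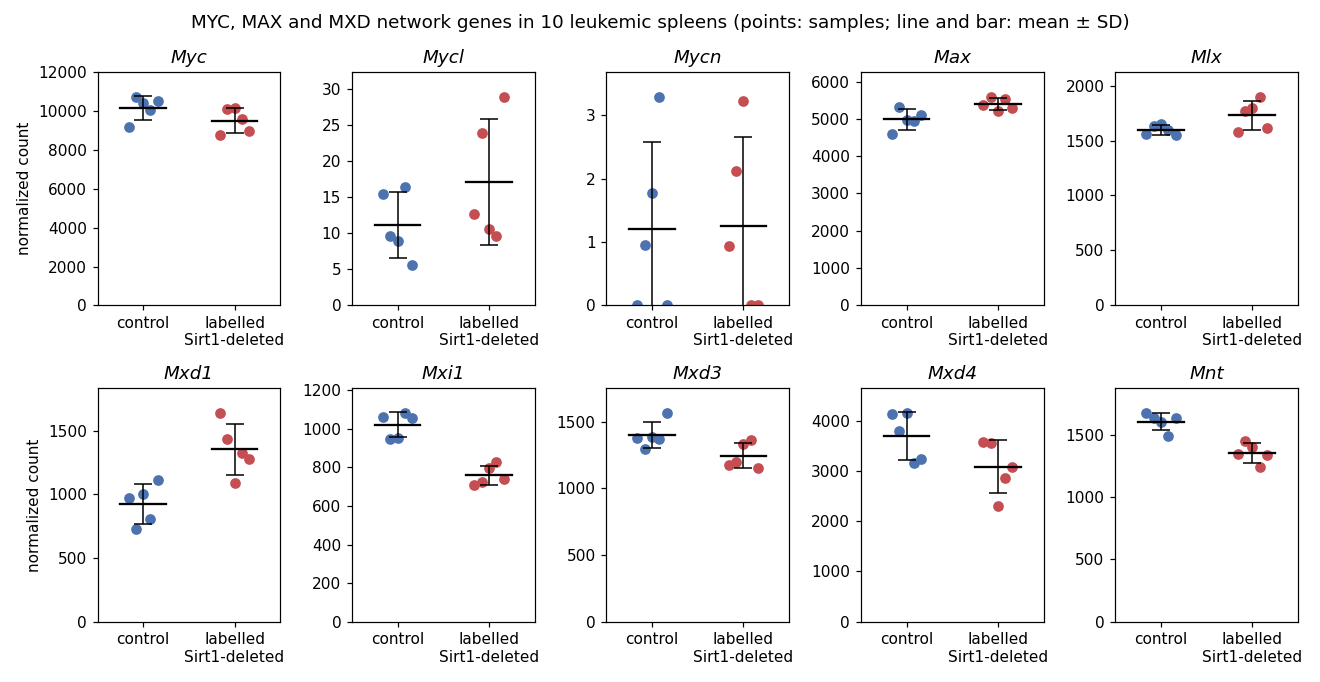
Normalized counts (vertical axes, from 0) of the 10 network genes in 5 control and 5 labelled Sirt1-deleted samples, with points for samples and lines and bars for mean ± SD. Mxi1 and Mnt separate the groups completely, Mxd1 rises with 1 sample inside the control range, and Myc overlaps.

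Among the antagonists, Mxd1 moved upward. It encodes MAD1, the founding MXD repressor, which is induced as myeloid cells differentiate. Mxd1 measured 1638, 1434, 1088, 1328 and 1281 in labelled Sirt1-deleted samples 7, 8, 10, 11 and 12, against 968, 725, 1000, 807 and 1111 in controls 2 to 6. Labelled Sirt1-deleted sample 10 fell just below control 6, and the other labelled Sirt1-deleted samples lay above every control. The mean rose by 46.8%, a log2 difference of 0.56 (SE 0.13, 95% interval 0.29 to 0.83; limma adjusted p = 0.00545). The call held in all 10 fits without 1 sample, and failed with the exact rank-sum test (adjusted p = 0.0512), which called 24.0% of tested genes.

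Mxi1 moved the other way. It encodes MXI1, a MAX-binding repressor with a SIN3-binding isoform and a gene long examined as a tumour suppressor. Mxi1 measured 711, 725, 795, 827 and 742 in labelled Sirt1-deleted samples 7, 8, 10, 11 and 12, and 1063, 948, 954, 1082 and 1059 in controls 2 to 6. No value overlapped between the groups. The mean fell from 1021 ± 64.8 to 760 ± 49.1 (SD, n = 5 each), a log2 difference of -0.43 (SE 0.07, 95% interval -0.57 to -0.28; limma adjusted p = 9.69e-04; exact permutation p = 0.00794, the lowest value that 5 samples a group allow). Mxi1 (chr19:53310518-53375810, plus strand, GRCm38) shares 194 exonic bases with an opposite-strand gene, Gm10197, which was not analysed here.

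Mnt, which encodes the broadly expressed antagonist that is present in proliferating cells alongside MYC, was lower too. Its values were 1347, 1453, 1405, 1244 and 1343 in labelled Sirt1-deleted samples 7, 8, 10, 11 and 12, and 1678, 1635, 1608, 1490 and 1639 in controls 2 to 6. The highest labelled Sirt1-deleted value lay below the lowest control. The mean fell by 15.6% (difference of -0.25 on the log2 scale, SE 0.06, 95% interval -0.37 to -0.12; adjusted p = 0.00614 by limma; exact permutation p = 0.00794). Mnt (chr11:74830920-74845725, plus strand, GRCm38) shares no exonic base with another annotated gene. Mxi1 and Mnt, 2 of the 9 tested members, had groups that did not overlap, where 24.0% of all tested genes did so. Both calls held under the 10 other settings that kept all samples and in all 10 fits without 1 sample.

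Mxd3 and Mxd4, the remaining antagonists, differed in the same direction as Mxi1 and Mnt without being called. Mxd3, which is unusual in the family because it is expressed in cycling cells, was 1173, 1200, 1330, 1360 and 1152 in labelled Sirt1-deleted samples 7, 8, 10, 11 and 12, and 1376, 1295, 1387, 1372 and 1563 in controls 2 to 6. Samples 10 and 11 overlapped the controls. The difference was -0.17 (95% interval -0.32 to -0.02; limma adjusted p = 0.0674). It passed with sample weights (adjusted p = 0.0347), without labelled Sirt1-deleted sample 10 (adjusted p = 0.0427), without sample 11 (adjusted p = 0.0377) and without both (-0.25, adjusted p = 0.0103). The removal of both was chosen after seeing the data, for their likeness to the controls, which can itself widen group differences. Mxd3 shares 105 exonic bases with the opposite-strand gene Prelid1.

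Mxd4, which encodes MAD4 of differentiating and resting cells, varied widely within both groups. It ranged from 2312 in labelled Sirt1-deleted sample 10 to 3586 in sample 7, and from 3155 in control 5 to 4153 in control 4. The groups overlapped, with coefficients of variation of 17.2% and 12.8%. The difference was -0.27 (95% interval -0.53 to -0.01; limma adjusted p = 0.0938), and it was -0.17 without sample 10 and -0.11 without samples 10 and 11 (adjusted p = 0.384). Mxd4 shares 514 exonic bases with the opposite-strand gene Gm42846, which was not analysed here.

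**Figure D2:**
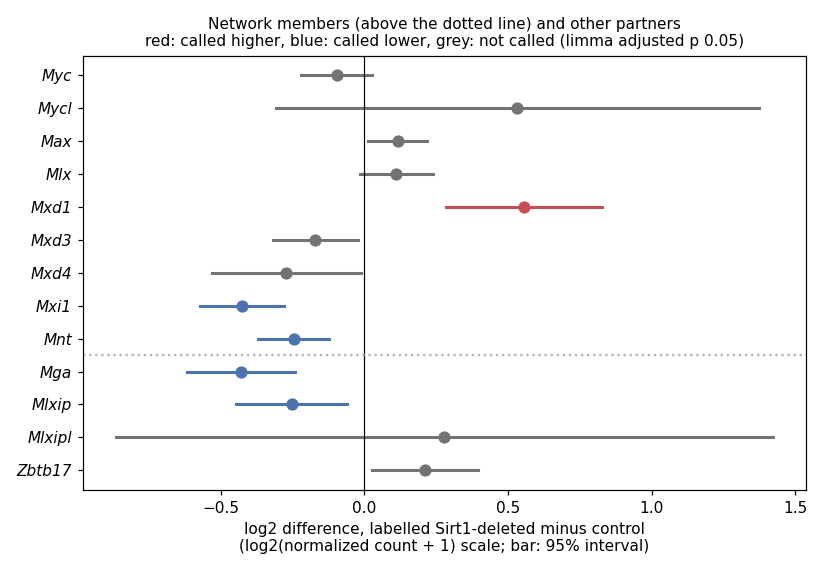
Log2 differences (horizontal axis, labelled Sirt1-deleted minus control) of the 9 tested members and 4 other partners, with 95% intervals from limma. Mxd1 lies at 0.56, while Mxi1 at -0.43, Mnt at -0.25 and the partner Mga at -0.43 lie below 0, and Myc at -0.10 has an interval that includes 0.

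Levels were next compared between genes after division by transcript length (normalized count per kb of the median protein-coding transcript in GENCODE M21). In controls Myc was highest, at 5678 ± 342 per kb, followed by Max at 2588 ± 141 per kb and Mxd4 at 1470 ± 189 per kb (SD, n = 5). Mxd3 (1054 ± 74.6 per kb) and Mlx (897 ± 24.8 per kb) came next, and then Mxi1 (685 ± 43.5 per kb), Mnt (618 ± 27.4 per kb) and Mxd1 (363 ± 60.8 per kb). Mycl was at 3.39 per kb and Mycn at 0.463 per kb. The ranges of neighbours in this order did not overlap between Myc and Max, Max and Mxd4, Mxd4 and Mxd3, Mxd3 and Mlx, Mlx and Mxi1, or Mnt and Mxd1, and they overlapped between Mxi1 and Mnt. In the spleens labelled Sirt1-deleted Mxd1 (533 ± 79.5 per kb), Mnt (521 ± 30.1 per kb) and Mxi1 (510 ± 32.9 per kb) had overlapping ranges. That overlap rests on the choice of length: per kb of the union of exons, the means were 191 for Mxd1, 294 for Mnt and 111 for Mxi1 in the same samples. In controls the places of Myc, Max, Mxd3, Mxd1, Mycl and Mycn among the members were the same with the union of exons as length, and those of Mlx, Mxd4, Mxi1 and Mnt shifted.

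The activator was then set against its antagonists. Myc made up 58.8% ± 2.49 of the summed per-kb level of Myc and the 5 MXD and MNT genes in the spleens labelled Sirt1-deleted, and 57.5% ± 2.34 in controls (SD, n = 5 each). Its share ran from 55.4% in sample 7 to 62.3% in sample 10 in the former, and from 53.7% in control 2 to 59.7% in control 3 in the latter. The balance between Myc and all antagonists together thus differed by less than the spread between samples. The log2 level of Myc minus the mean log2 level of the 5 antagonists was 2.77 ± 0.134 against 2.76 ± 0.144 (SD, n = 5 each), a difference of 0.01 that was given no test. It was -0.01 after quantile normalization and -0.05 without samples 10 and 11.

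The make-up of the antagonist side differed in the 3 members already called. Mxd1 took 4.72% to 7.29% of the summed level in the spleens labelled Sirt1-deleted and 2.85% to 4.32% in controls. Mxi1 took 5.08% to 6.12% against 6.30% to 7.64%, and Mnt 5.26% to 5.98% against 6.02% to 6.75%. None of these 3 pairs of ranges overlapped, with either choice of length, but the shares themselves depend on it. The 3 shares largely restate the 3 calls, and 24.0% of all tested genes had groups that did not overlap. With the union of exons, Mxd1 took 2.99% to 4.85% against 1.85% to 2.82%, and Mxi1 2.01% to 2.41% against 2.51% to 3.05%. The log2 ratio of Mxd1 to Mxi1, which needs no length correction to be compared between groups, was 1.20, 0.98, 0.45, 0.68 and 0.79 in labelled Sirt1-deleted samples 7, 8, 10, 11 and 12. In controls 2 to 6 it was -0.13, -0.39, 0.07, -0.42 and 0.07. The ratio was higher in each labelled Sirt1-deleted sample than in any control. The mean log2 level of the other 4 antagonists (Mxd3, Mxd4, Mxi1 and Mnt) was 10.41 to 10.51 in the spleens labelled Sirt1-deleted and 10.67 to 10.80 in controls. These shares, ratios and means were chosen with the values of their parts known and are descriptions.

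**Figure D3:**
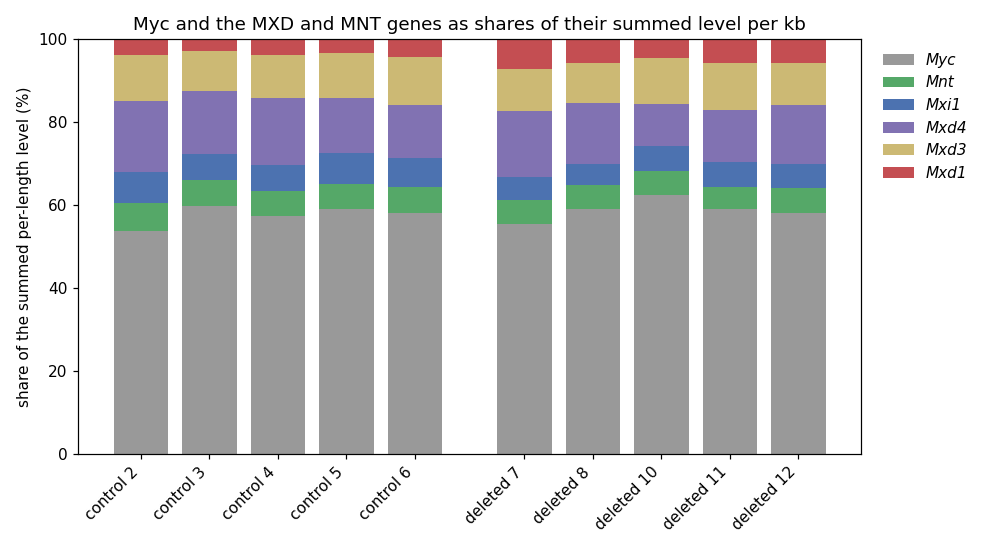
Share of each gene (vertical axis, percent) in the summed per-kb level of Myc, Mnt, Mxi1, Mxd4, Mxd3 and Mxd1, with 1 stacked bar per sample. The Myc share overlaps between the groups, while the Mxd1 share is 2.85% to 4.32% in controls and 4.72% to 7.29% in labelled Sirt1-deleted samples.

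Markers of other cells moved with the groups and are given beside these results. The sum of 14 neutrophil marker genes was 60145, 99982, 28975, 39751 and 44848 normalized counts in labelled Sirt1-deleted samples 7, 8, 10, 11 and 12, and between 9166 and 12659 in controls. Of the 14, 13 were called higher, all 14 were detected, and none was at 0 in all samples. Labelled Sirt1-deleted sample 10 had both the lowest Mxd1 value and the lowest neutrophil sum of its group, whereas sample 7 had the highest Mxd1 value and sample 8 the highest neutrophil sum. The sum of 16 macrophage and monocyte markers was 7347 to 13304 against 3586 to 4101, with 13 of 16 called higher. The sum of 10 erythroid markers ran from 39298 to 160448 against 42836 to 134243 and overlapped between the groups. For these markers limma called 0 of 10, with 1 of 10 at an unadjusted p under 0.05. T lineage markers summed to 188371 to 230063 against 165634 to 183395, with 3 of 14 called higher and 3 called lower. Thy1 weighs heavily in this sum, with means of 79592 against 53217. Of the 14 log2 differences 6 were positive and 8 negative, with a median of -0.03. The part of neutrophils and macrophages in the rise of Mxd1, or of any other cell in the falls of Mxi1 and Mnt, was not tested. In bulk RNA, fewer cells of a type and less RNA per cell cannot be told apart.

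**Figure D4:**
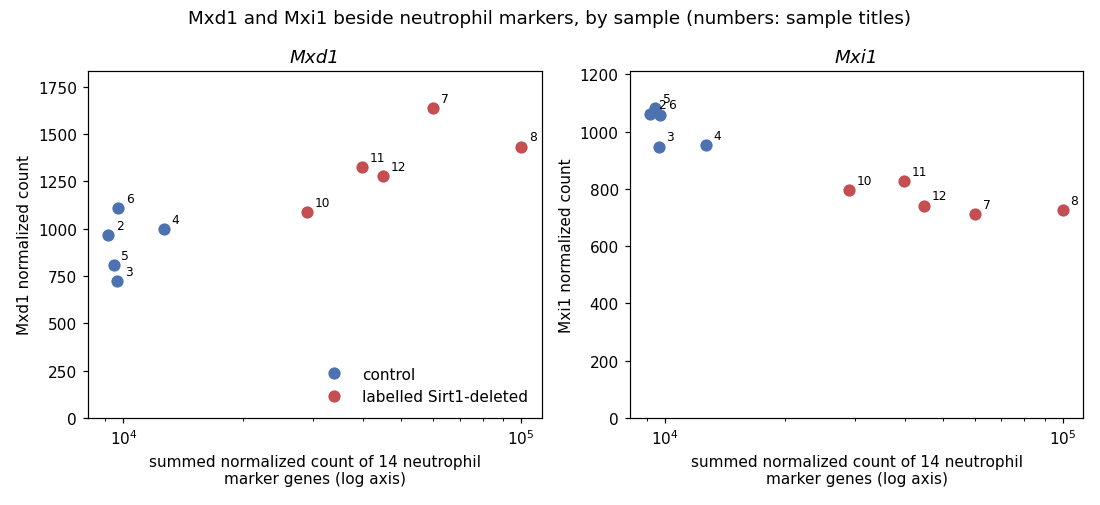
Normalized counts of Mxd1 and Mxi1 (vertical axes, from 0) against the summed normalized count of 14 neutrophil marker genes (log axis) in each sample. All labelled Sirt1-deleted samples lie at 28975 or more on the marker axis and all controls at 12659 or less, so the marker sum separates the groups.

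Of 4 further partners of the network, Mga and Mlxip were called lower and 0 higher, where 19.4% of all tested genes were called lower and 16.8% higher. Mga encodes the giant MAX partner that represses genes with a variant Polycomb complex. Mga fell from 3805 ± 455 to 2819 ± 273 (SD, n = 5 each; difference of -0.43 on the log2 scale, SE 0.09; adjusted p = 0.00324 by limma). Its labelled Sirt1-deleted values, 2577 to 3236, lay below its control values, 3268 to 4260. Of 5 other subunits of the MAX and MGA complex, 2 were called lower and 0 higher (40% called, near the 36.1% of all tested genes). E2f6, its DNA-binding E2F subunit, differed by -0.30 (limma adjusted p = 0.00462), and Rnf2, its ubiquitin ligase subunit, by -0.28 (limma adjusted p = 0.00170). L3mbtl2, Pcgf6 and Tfdp1 were not called. All 3 calls held under the 10 other settings with all samples and without each sample in turn.

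On the MLX side, Mlxip, which encodes MondoA, differed by -0.25 (limma adjusted p = 0.0410). That call was lost in 5 of the 10 other settings that kept all samples and in 6 of the 10 fits without 1 sample. Mlxipl, which encodes ChREBP of liver and fat, was low, at 15.6 ± 10.1 against 11.7 ± 6.52, and was not called. The targets of MLX heterodimers Txnip (log2 difference 0.01, 95% interval -0.44 to 0.47) and Arrdc4 (0.82, 95% interval -0.02 to 1.65) were not called, and neither had an unadjusted p under 0.05. Txnip was 5910, 4505, 2239, 2808 and 4246 in labelled Sirt1-deleted samples 7, 8, 10, 11 and 12, and 3207 to 4378 in controls. Its sign changed in 4 settings. Among the settings run, Txnip was called only without samples 10 and 11 together, a removal chosen after seeing the data. Zbtb17, which encodes MIZ1, the factor through which MYC represses genes, differed by 0.21 (limma adjusted p = 0.0717). It passed after upper-quartile rescaling, quantile normalization and sample weighting, and without labelled Sirt1-deleted sample 10.

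The corepressor used by the MXD proteins and MNT was measured through 13 genes of the SIN3 and histone deacetylase complex, of which 2 were called higher and 2 lower (30.8% called, against 36.1% of all genes). The called falls were in the scaffolds that contact the MXD proteins. Sin3a fell from 3819 ± 345 to 2793 ± 411 (difference of -0.46 on the log2 scale, SE 0.10; adjusted p = 0.00411 by limma) and Sin3b from 3136 ± 165 to 2694 ± 145 (difference of -0.22 on the log2 scale, SE 0.05; adjusted p = 0.00829 by limma; SD, n = 5 each). Neither gene had overlapping groups, nor had the 2 genes called higher, where 24.0% of all tested genes had groups that did not overlap. The called rises were in Arid4a, a chromatin-binding subunit (0.38, limma adjusted p = 0.00707), and Hdac2, a catalytic deacetylase (0.24, limma adjusted p = 0.00609). Hdac1, its close relative, was not called (0.01). The median difference of the 13 genes was 0.08, beside 0.00 for all tested genes.

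Of 13 listed coactivators of MYC, 5 were called higher and 2 lower, where 16.8% of all tested genes were called higher and 19.4% lower. Trrap, the scaffold through which MYC recruits acetyltransferases, rose by 0.29 (limma adjusted p = 0.00632), and Ccnt1, the cyclin of the elongation kinase, by 0.34 (limma adjusted p = 0.0135). Both lost their calls with the rank-sum test (adjusted p = 0.0512 each). Ep400, the ATPase of the TIP60 complex, differed by -0.26 (limma adjusted p = 0.0182) and lost its call with the rank-sum test and without control 2. Ctr9, of the PAF elongation complex, differed by -0.17 (limma adjusted p = 0.0265), and its call was lost after upper-quartile rescaling and quantile normalization and without labelled Sirt1-deleted sample 7, control 2 or control 4.

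Of 13 genes that set the stability of the MYC protein, 4 were called higher and 3 lower (53.8% called, beside 36.1% of all tested genes). Pim2, a kinase that stabilizes MYC, rose by 0.42 (limma adjusted p = 0.00310), and Stub1, a chaperone-linked ubiquitin ligase, by 0.41 (limma adjusted p = 0.00183). Huwe1, a large ubiquitin ligase of MYC and MIZ1, fell by 0.27 on the log2 scale (limma adjusted p = 0.0110). Skp2, an F-box protein that ubiquitinates MYC, differed by -0.25 (limma adjusted p = 0.0480), a call lost in 6 of 10 other settings and in 8 of 10 fits without 1 sample. Fbxw7, the F-box protein that degrades MYC and active NOTCH1 and is often mutated in T-ALL, was singled out after its value was seen. Fbxw7 was 1420 ± 145 against 1176 ± 100 (SD, n = 5 each; difference of 0.27 on the log2 scale; adjusted p = 0.0199 by limma), and its call was lost with the rank-sum test and without labelled Sirt1-deleted sample 7 or control 5.

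Of 32 genes known to be activated by MYC, 11 were called higher and 2 lower, where 16.8% of all tested genes were called higher and 19.4% lower. The median difference of the list was 0.08, beside 0.00 for all tested genes. The largest rises were in Hspe1, the mitochondrial co-chaperonin, at 0.73 (limma adjusted p = 2.30e-04), and Ncl, the nucleolar protein nucleolin, at 0.48 (limma adjusted p = 5.79e-04). Cad, the enzyme that starts pyrimidine synthesis and a classic E-box target of MYC, fell from 11559 ± 1313 to 8259 ± 1882 (SD, n = 5 each; difference of -0.51 on the log2 scale; adjusted p = 0.0136 by limma), and Ddx21, a nucleolar helicase, had a difference of -0.32 (limma adjusted p = 0.0182). Both of these lost their calls with the rank-sum test, and Ddx21 also without control 2. The number called lower depended on single samples. It was 8 without labelled Sirt1-deleted sample 10, 5 without sample 11, 13 without both and 1 without control 2, while the number called higher was 9 to 16 over all settings. Among all tested genes, the number called lower was 3333, 3075, 3725 and 2230 in the same fits, against 2956 with all samples. RefSeq promoter windows were matched for 26 of the 32 genes, and 6 of them (23.1%) held CACGTG, where 8.09% of all genes with a window did. Among the genes repressed by MYC, listed next, 6 had a window and 1 of these (16.7%) held it. The background of all genes was not chosen for similar base composition or expression, and these shares were not tested.

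Of 8 genes repressed by MYC, 2 were called higher and 1 lower (37.5% called, near the 36.1% of all tested genes). Cdkn1a, the cell cycle inhibitor p21 and also a classic p53 target, was 888 to 1542 in the spleens labelled Sirt1-deleted and 242 to 335 in controls (difference of 1.88 on the log2 scale, SE 0.14; adjusted p = 3.52e-05 by limma). Ndrg1, a stress and differentiation gene that MYC proteins repress, was 1594 to 2408 against 2637 to 3585 (difference of -0.74 on the log2 scale, SE 0.12; adjusted p = 0.00124 by limma). These largest changes of the list thus ran in opposite directions. Gadd45a, a stress-response gene, differed by 0.41 (limma adjusted p = 0.0371), with groups that overlapped. Its call was lost with the rank-sum test, with limma without trend and in 6 of 10 fits without 1 sample. Cdkn1b, Cdkn2b, Cdkn2c, Ndrg2 and Clu were not called.

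**Figure D5:**
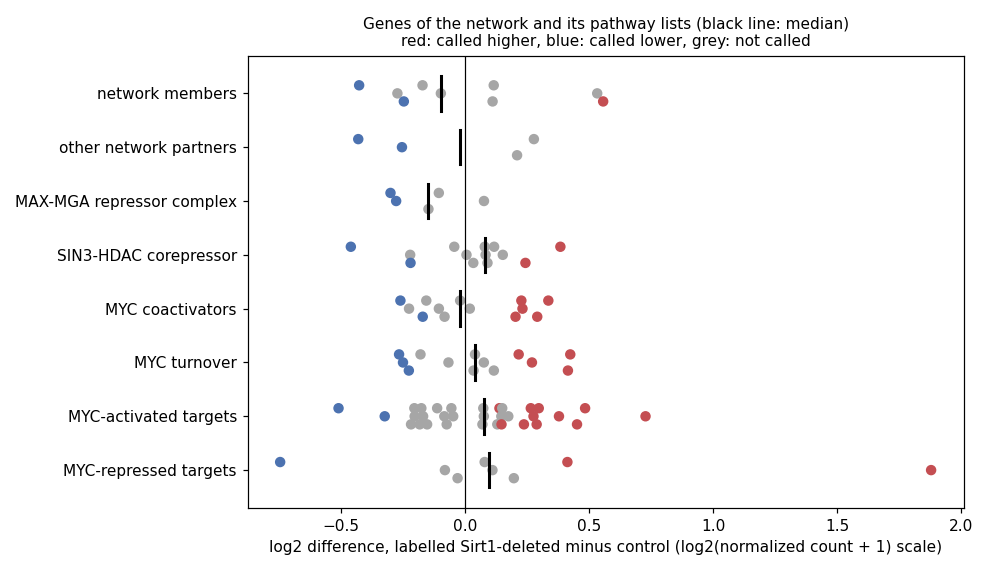
Log2 differences (horizontal axis, labelled Sirt1-deleted minus control) of the tested genes in 8 lists, 1 point per gene, with a black line at each list's median. Called genes lie on both sides of 0 in all lists except the other partners and the MAX and MGA complex, where the 2 called genes of each are lower.

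The genes whose levels followed Myc and Max most closely within the groups were found by Pearson correlation over the 10 samples after subtraction of each group's mean, among 10751 other genes with a mean of at least 100. For Myc these were Gpbp1 (r = 0.93), Osgin2 (r = 0.91) and Rwdd4a (r = 0.91). For Max they were Gng5 (r = 0.95), Herpud1 (r = 0.93) and Tdp2 (r = 0.91). The values come from the same libraries, share their scaling and were picked as the highest of many, so they are descriptions only.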

How the data were processed

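The deposited table holds gene-level counts divided by DESeq normalization factors, a normalized signal that the authors deposited for 10 samples and not raw counts. The submitters' processing notes name kallisto 0.44.0, DESeq and build mm10. The annotation, gene filter and summing of transcripts are not given in the sources used here. Values are not whole numbers, so no count model was fitted, depth in reads was not derived and no counting intervals are given. Of the columns, 0 lay outside the 10 samples.

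Genes with a mean of at least 10 were analysed as log2(value + 1), which understates changes of low genes, with limma 3.58.1 in R 4.3.3 (group as the only term, intensity trend, Benjamini-Hochberg adjustment, threshold 0.05). Exact two-sided permutation tests used the 252 assignments of 10 samples to 2 groups of 5. The fit was tested on simulated data. Members and lists were chosen with earlier results of these data known. Named are all members and, in each list, the called genes with the 2 largest rises and the 2 largest falls, and for Myc and Max the 3 genes most like each. Other settings tried were a pseudocount of 0.1 or 5, a minimum mean of 1 or 50, no minimum, rescaling to the upper quartile, quantile normalization, sample weights or no trend in limma, a rank-sum test (exact), and the omission of each sample. Lengths and exon overlaps came from GENCODE M21 (GRCm38), which may differ from the annotation the authors used.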

Additional observations from a re-analysis of the deposited data

Results flagged for a closer look

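In 78 sets of 5 values (members, named genes, marker sums and the ratio of Myc to its antagonists, by group), the distance of the highest or lowest sample from the next was divided by the range of its 5 values. The result exceeded the critical ratio of 0.71 in 4 sets, where chance at 1 in 20 gives 3.9, and none of the 4 was a network member. Hdac2 was 8128 in labelled Sirt1-deleted sample 12 against 6917 to 7119 in the others of its group. Ddx21 was 16989 in control 2 against 14411 to 15052 in the other controls. The summed neutrophil markers were 12659 in control 4 against 9166 to 9714 in the other controls. The summed macrophage and monocyte markers were 13304 in labelled Sirt1-deleted sample 8 against 7347 to 8747 in the others of its group.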

How the results depend on the processing

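No paired analysis was possible because the numbers in the titles differ between the groups. The removal of labelled Sirt1-deleted samples 10 and 11 together was chosen after seeing the data, since their mean correlations with the controls over all tested genes were the highest of their group (0.977 and 0.981, against 0.968 to 0.974). Leaving out the samples most like the controls can itself widen group differences. The genes called over the whole table rose from 5518 to 6926, so calls gained this way are not independent support.

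The number of called members was 5 after upper-quartile rescaling and 5 after quantile normalization, where Max and Mlx joined as higher, 2 by the rank-sum test (Mxi1 and Mnt, both lower), and 3 to 4 in the fits without 1 sample. The direction of each tested member was the same in every alternative run. The number of genes called over the whole table was 3659 with the exact rank-sum test and 4201 to 6260 without 1 sample. With the rank-sum test only genes without overlap passed. The next larger rank-sum p, as for Mxd1, adjusted to 0.0512, just above the threshold. The number of MYC-activated targets called lower was 8 with sample weights, 13 without samples 10 and 11, and 0 with the rank-sum test (1 at an unadjusted p under 0.05, and 6 with limma). It was 1 to 8 without 1 sample, and the cause was not tested. Among all tested genes, 3325 were called lower with sample weights, 3725 without samples 10 and 11, and 1968 with the rank-sum test. Low values limit Mycl, Mycn, Mlxipl, Arrdc4 and Cdkn2b, for which only large differences could be detected.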
